A study of Homo sapiens with 4 samples.

Results

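The libraries of HEK-293 cells treated with the ZSCAN5A siRNAs si4 and si5 were compared directly with the library of cells treated with si1, an siRNA designed against the paralog ZSCAN5B. HEK-293 cells are a long-established line of human embryonic kidney origin. In each case 10 nM of siRNA was delivered with Lipofectamine RNAiMAX and RNA was collected after 48 h. The fourth library of the series, from cells given a scrambled control siRNA in the same way, was not part of the comparison and serves below only as a reference that the comparison did not use. One library was sequenced for each siRNA, so that si4 and si5 are different reagents for a single gene that stand in for 2 replicates, and nothing in the labels places them in separate cultures. Expression was given as FPKM, fragment counts scaled to transcript length and to the mapped fragments of the library, and the low values moved in steps from which the depth of si4, si5 and the control was estimated at 1.07, 1.52 and 0.984 times that of si1. Of 24934 gene rows, 12863 reached 1 FPKM in at least 1 of the 3 knockdown libraries and were above 0 in all of them, and of these 8317 (64.7%) had both ZSCAN5A siRNAs on the same side of si1. Of 15 HEK-293 marker genes, 14 passed these limits. Over the 4 libraries VIM was at 270 to 359 FPKM and KRT8 at 148 to 199 FPKM. PAX2, also taken as a marker of the line, was at 0.584, 0.615 and 0.608 FPKM with si4, si5 and si1 and at 1.16 FPKM in the control. Of 17 blood, endothelial, liver and muscle markers, 16 were at or below 0.553 FPKM in every library. The exception was HBA1, an alpha globin gene with a near-identical copy, at 2.17 FPKM with si4, 0.811 FPKM with si5, 1.64 FPKM with si1 and 0.650 FPKM in the control.

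ZSCAN5A and ZSCAN5B encode zinc finger proteins with a SCAN domain, an interaction domain through which such factors pair, and they arose by gene duplication. An siRNA is loaded into an Argonaute protein as a single guide strand, and a fully matched mRNA is cut. A guide can also lower mRNAs that it matches only through its seed, the bases near its 5′ end, much as a microRNA does, and such seed matches act mostly in 3′ UTRs. A direct comparison of siRNAs against paralogs leaves the control library out, but each reagent brings its own guide sequence into the comparison.

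The target sequences of the 3 siRNAs are shown 5′ to 3′ in the sense of the mRNA, with the bases that pair with positions 2 to 8 of the guide strand in capitals, because these letters are searched for in 3′ UTRs below. In GRCh37, the build of the deposited table, si4 lies at chr19:56733332-56733352 and si5 at chr19:56733307-56733327, both in the coding part of exon 6 of 6 of ZSCAN5A, and si1 lies at chr19:56701591-56701611 in the coding part of exon 5 of 5 of ZSCAN5B. All are on the minus strand.
si4 target: cgagaagaggtttACGTGTAa
si5 target: aagctagtcatccACAAGAGa
si1 target: acgtgtgcaataaATCATTTa

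The closest stretch of the other paralog differed at 6 of 21 bases for si4, at 5 for si5 and at 6 for si1. These stretches are shown with the differing bases in capitals, because they bear on whether an siRNA could reach the paralog as well. For both ZSCAN5A siRNAs at least 1 of the differences fell in the bases that pair with the seed, and for si1 4 of the 6 did.
ZSCAN5B, closest to si4: GgagaGgCCgtttaAAtgtaa
ZSCAN5B, closest to si5: CagctaAGcatccacaGgagG
ZSCAN5A, closest to si1: acgtgtgcGaGaaGAGGttta

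The targeted genes were examined first. ZSCAN5A (chr19:56732679-56739659) was at 0.730 FPKM in the si4 library, 0.713 FPKM in the si5 library and 2.53 FPKM in the si1 library, and at 2.42 FPKM in the control. The si4 and si5 values were 28.9% and 28.2% of that with si1, with exact Clopper-Pearson 95% intervals of 22.6% to 36.9% and 22.7% to 35.1% on about 89, 123 and 286 fragments, which cover counting error only. ZSCAN5A was thus low with both of its own siRNAs and close to the control with si1. ZSCAN5B (chr19:56701058-56704421) was weakly expressed, with FPKM of 0.0331 (si4), 0.0663 (si5), 0.0948 (si1) and 0.0903 (control), from 6, 17, 16 and 15 fragments. Set against the control, si1 stood at 105% (48.6% to 228%), so that a lower level with si1 was not detectable at this depth and the label could not be checked firmly. The term library labelled ZSCAN5B knockdown is used wherever a direction is drawn from it. Relative to si1, ZSCAN5B stood at 34.9% (11.2% to 93.9%) with si4 and at 69.9% (33.2% to 148%) with si5, and the si5 interval includes equality. RMRP, the RNA component of RNase MRP and an RNA polymerase III transcript, was at 6.83, 5.15 and 6.36 FPKM with si4, si5 and si1 and at 2.24 FPKM in the control, from 30, 32, 26 and 9 fragments. Against si1 its ratio was 107% (61.4% to 189%) with si4 and 81.0% (46.8% to 141%) with si5, and no difference was detectable at this depth. Since the libraries were made from mRNA, such transcripts are measured only in part.

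A gene was counted as differing when its FPKM values under si4 and under si5 were both more than 1.5-fold above, or both more than 1.5-fold below, its FPKM with si1. Of the 12863 genes, 43 were higher (0.334%) and 17 were lower (0.132%), 60 in all (0.466%). No p-value belongs to this rule, because si1 is a single library that enters both ratios. The siRNAs for the same gene differed about as much from each other as from si1: the median absolute log2 ratio was 0.11 for si4 over si1, 0.10 for si5 over si1 and 0.11 for si4 over si5, and 325 genes (2.53%) differed more than 1.5-fold between si4 and si5. Taken singly, si4 differed from the library labelled ZSCAN5B knockdown in 337 genes (119 higher, 218 lower) and si5 in 204 (104 higher, 100 lower), and in 13 genes they passed the limit in opposite directions. The distance to si1 exceeded the distance between si4 and si5 in 57 of the 60 genes, which the rule itself largely fixes, and in 3958 of all 12863 genes. By limma on log2(FPKM + 1), 0 genes passed a Benjamini-Hochberg adjusted p of 0.05, and 251 higher and 150 lower genes had an unadjusted p under 0.05.

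**Figure D1:**
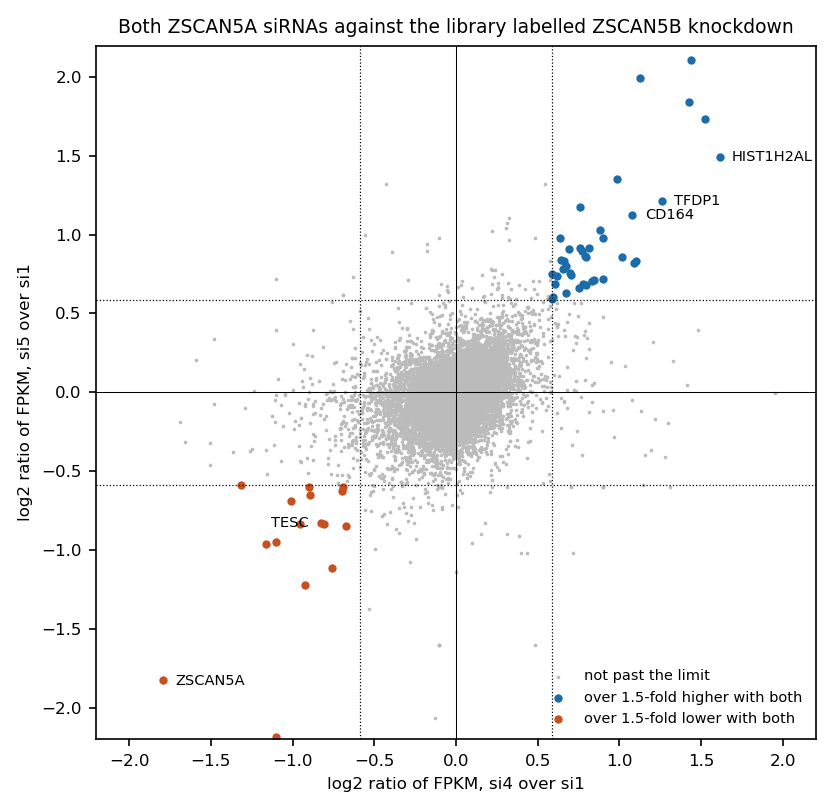
The log2 ratio of FPKM of si5 over si1 (vertical axis) is plotted against that of si4 over si1 (horizontal axis) for 12855 of the 12863 genes tested; 8 genes, 5 of them past the limit, lie outside the axes. Blue and orange points are genes over 1.5-fold higher or lower with both ZSCAN5A siRNAs, dotted lines mark the limit, and most genes form a cloud around 0, with TFDP1 and CD164 at the upper right and ZSCAN5A far to the lower left at -1.79 and -1.83.

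Of the genes tested, 72.0% reached 5 FPKM in 1 of the 3 libraries, as did 28 of the 43 higher rows (65.1%) and 3 of the 17 lower rows (17.6%). Of the 43 rows that were higher, 23 were genes on a single row that reached 5 FPKM, 9 were genes between 1 and 5 FPKM, 5 were short RNA genes (SNORD17, SNORD94, SNORA1, SNORA21 and SNORD10), 3 were read-through genes and 3 were rows of symbols found on several rows. Of the 17 that were lower, 1 reached 5 FPKM on a single row, 12 were between 1 and 5 FPKM, 2 were short RNA genes (SNORA72 and MIR762) and 2 were rows of symbols found on several rows (RNF5 and NBPF16). The short RNA genes rest on very few fragments with si1, with 8 for SNORD17, 3 for SNORD10, 2 for SNORA21 and 1 each for SNORD94 and SNORA1, and both of their intervals against si1 exceeded 1 in none of them. FAM21B and both rows of SERF1A were at or below 0.00213 FPKM with si1, which is less than 3 fragments, the floor used here, so their folds are left out. Near-identical copies share reads in such rows, so their values are uncertain.

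Among the 23 genes the largest ratio was that of TFDP1 (chr13:114239003-114295788), which encodes DP1, the partner with which E2F factors bind DNA at cell cycle genes. Its FPKM was 61.6 (si4), 59.8 (si5) and 25.8 (si1). The control was at 63.8 FPKM, beside the ZSCAN5A siRNAs and far from si1. The ratios to si1 were 2.39 (2.30 to 2.49, counting error only) and 2.32 (2.24 to 2.41). CD164 (chr6:109687717-109703762), a sialomucin of endosomes and the cell surface, was at 141 (si4), 145 (si5) and 66.6 FPKM (si1), against 129.9 FPKM in the control. It was the most abundant of the 23 genes, and si1 again stood alone. CBFB (chr16:67063050-67134958), the subunit that stabilises DNA binding by RUNX factors, was at 38.4, 34.3 and 18.96 FPKM with si4, si5 and si1 and at 39.7 FPKM in the control. DUS1L (chr17:80015751-80023680), related to the enzymes that make dihydrouridine in tRNA, was at 78.6, 84.4 and 44.7 FPKM and at 79.7 FPKM in the control. In each of these genes the control lay close to the mean of si4 and si5. On a log2 scale on which si1 is 0 and that mean is 1, its place was 1.06 for TFDP1, 0.876 for CD164, 1.14 for CBFB and 0.964 for DUS1L.

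The others are given with what each is known to do, and no function was tested over them. FBXW2, a substrate receptor of SCF ubiquitin ligases, had FPKM of 6.94 (si4), 7.23 (si5), 4.00 (si1) and 7.89 (control). KLHL20, an adaptor of cullin 3 ubiquitin ligases, was at 7.59, 7.98, 4.39 and 7.08 FPKM in the same order. AP1S3, a small subunit of the AP-1 clathrin adaptor, was at 5.23, 4.34, 2.44 and 4.39 FPKM. All of these were higher with both ZSCAN5A siRNAs, and si1 gave the lowest value of the 4 libraries in each. SUMF1, the enzyme that activates sulfatases, had FPKM of 8.80 (si4), 7.31 (si5), 4.14 (si1) and 9.65 (control). TMEM64, a membrane protein, was at 5.84, 6.50, 3.18 and 11.8 FPKM, and its control, at 1.98 on the scale above, was higher than both ZSCAN5A siRNAs as well. MAPK6, the atypical kinase ERK3, was at 21.1, 19.4, 12.1 and 16.2 FPKM, and its control lay about midway, at 0.565 on the scale above.

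FOXN3, a forkhead repressor, had FPKM of 5.88 (si4), 6.04 (si5), 3.61 (si1) and 6.65 (control). RPRD1B, which binds the tail of RNA polymerase II, was at 12.3, 12.8, 7.58 and 13.3 FPKM. NUPR1, a small stress-induced nuclear protein, was at 8.04, 9.36, 4.98 and 7.37 FPKM. Each was lowest with si1, and si4 and si5 differed from each other by less than they differed from si1. CDC42SE2, an effector of the GTPase CDC42, was at 11.3, 10.3, 6.27 and 10.5 FPKM, and EPB41L4B, a FERM domain protein, was at 5.06, 5.64, 2.99 and 6.47 FPKM. ITGA8, integrin alpha 8, was at 7.14, 8.19, 4.58 and 9.11 FPKM and was the one gene past the limit in the list of extracellular matrix and adhesion genes. The other 7 genes that reached 5 FPKM, WASL (N-WASP), DEGS1 (a ceramide synthesis enzyme), AGPAT5, TMEM87A, PPP1R12A (the targeting subunit of myosin phosphatase), TMOD3 (tropomodulin 3) and SH3BP5, had si1 values of 6.75 to 57.8 FPKM and ratios to si1 between 1.502 and 1.68. Over the 15 genes with the largest ratios, the smaller of the ratios to si1 ran from 1.60 for MAPK6 to 2.32 for TFDP1. At the limit itself, TMOD3 and SH3BP5 were just inside at 1.503-fold and 1.502-fold, and CENPE (8.89, 9.78 and 5.95 FPKM) and ITGA4 were just outside at 1.49-fold and 1.48-fold.

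On the lower side, ZSCAN5A was the gene with the largest difference among those outside the short RNAs. TESC (chr12:117476728-117537251), the calcium-binding protein tescalcin, was the one gene on a single row that reached 5 FPKM, with 5.32 (si4), 5.31 (si5) and 9.44 FPKM (si1). Its control was at 4.27 FPKM, so that si1 was the library that stood apart. RBP4, the retinol carrier, was at 1.08, 1.24 and 2.42 FPKM and CRABP1, which binds retinoic acid in the cell, at 1.94, 2.29 and 3.605 FPKM, with the control between at 1.89 and 2.79 FPKM. ETV5, an ETS transcription factor, was at 0.735, 0.798 and 1.42 FPKM and at 0.750 FPKM in the control. TUBB4A, a neuronal beta tubulin, was at 3.07, 3.22 and 4.98 FPKM, and its control of 4.66 FPKM was close to si1. RBP4, CRABP1, ETV5 and TUBB4A are named after their values were seen, since they did not reach 5 FPKM. Just outside the limit were PLEKHA3 at 1.49-fold and SLC6A6 at 1.47-fold lower.

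**Figure D2:**
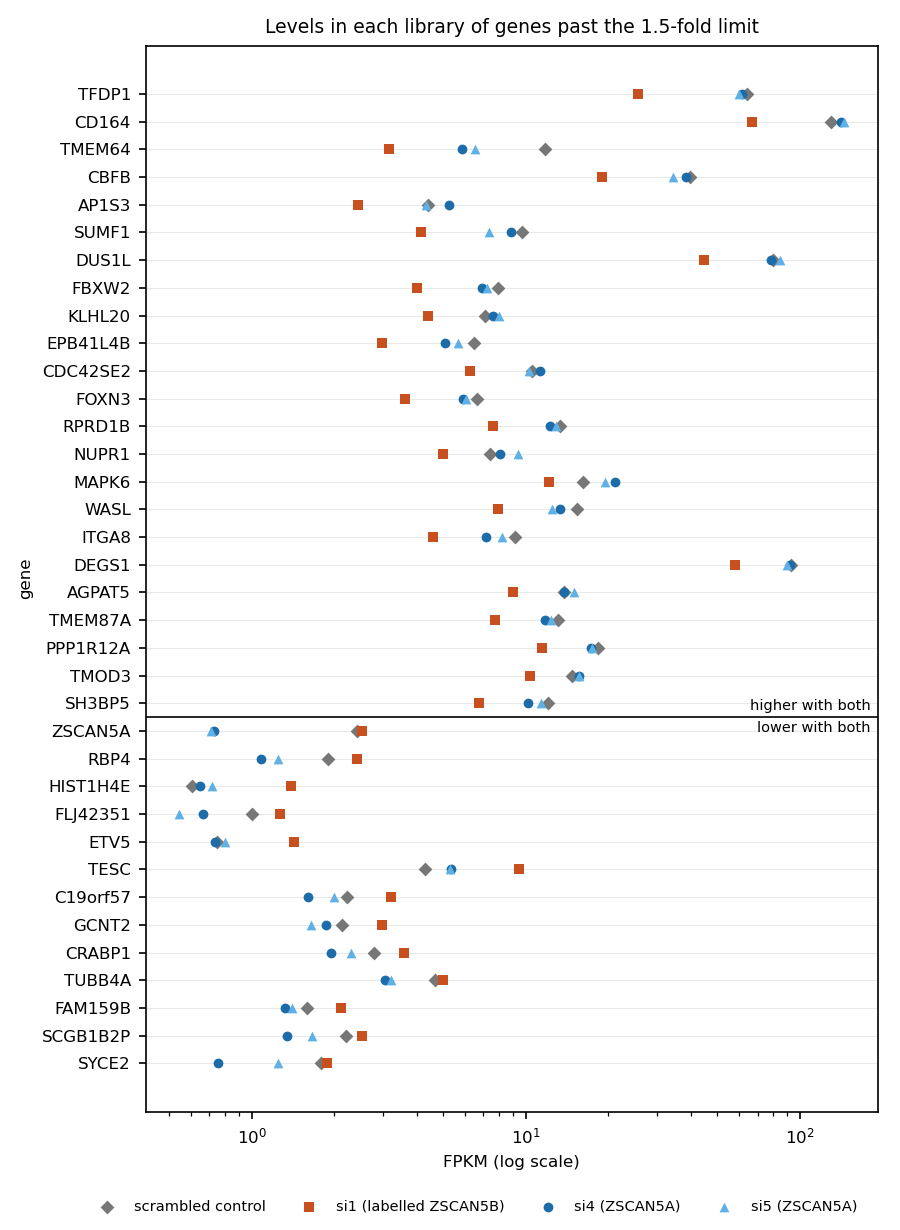
FPKM on a log scale (horizontal axis) in each of the 4 libraries is shown for the 23 genes that were higher with both ZSCAN5A siRNAs and reached 5 FPKM and for the 13 genes on single rows, other than short RNAs, that were lower. In the upper block the orange squares of si1 stand to the left of the other 3 libraries in every gene, whereas in the lower block the control lies beside si1 in some genes, such as ZSCAN5A and TUBB4A, and beside the ZSCAN5A siRNAs in others, such as ETV5 and TESC.

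The scrambled control, which the rule did not use, gives a reference for both sides of the comparison. Its ratio to si1 shares the single si1 value that chose the genes, and a low si1 value from any source would place the control beside si4 and si5, so its position is given as a description. On the log2 scale the control lay nearer to the mean of si4 and si5 than to si1 in 38 of the 43 higher rows and in all 23 of those that reached 5 FPKM on a single row. Among all genes with both ZSCAN5A siRNAs above si1 this was so in 56.1% of 3798. The control itself was more than 1.5-fold above si1 in 35 of the 43, where 2.85% of all genes tested were. Of the 17 lower rows, the control lay nearer to the ZSCAN5A siRNAs in 8 and nearer to si1 in 8, and MIR762 was listed at 0 in the control. The control was more than 1.5-fold below si1 in 5 of the 17, where 0.809% of all genes tested were. Among all genes with both ZSCAN5A siRNAs below si1, 49.8% of 4519 had the control nearer to the ZSCAN5A siRNAs.

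The 3′ UTRs of these genes were then searched for ATCATTT, the 7 bases that pair with the seed of si1. The motif was read on the mRNA strand alone, in the longest annotated 3′ UTR of each gene (GENCODE v44 on GRCh37), which can extend beyond the locus given in the table. Of the 33 higher genes with an annotated 3′ UTR, 19 (57.6%) held it, against 24.9% of the 11964 genes tested that have a 3′ UTR. Of the 23 genes that reached 5 FPKM, 17 (73.9%) held it, against 24.7% of the 8770 genes tested at that level, a restriction added after the data were seen. Of the 23, 9 were under 5 FPKM with si1 and passed through si4 or si5, where they were high. With the limit set instead on the mean of all 4 libraries, also added after the data were seen, 17 of 22 held the motif (77.3%), against 24.6% of 8626 genes. The 3′ UTRs of the 23 genes were also longer, with a median of 2489 bases against 1498 bases, and per 10 kb they held 4.64 matches against 1.67. Of the 13 lower genes with a 3′ UTR, 1 held the motif. A match of 7 letters is a description of the sequence and does not make a site.

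Sites in the 3′ UTRs of the higher genes are shown 5′ to 3′ on the mRNA strand, with the seed match in capitals, for the 4 genes described first above and for genes whose sites match si1 further. The number of the 21 bases shared with the si1 target was 17 for DUS1L, 15 for FOXN3, FBXW2 and SH3BP5, 11 and 10 for TFDP1, 12, 11 and 9 for CD164, and 11 for CBFB. Other sites of FOXN3, FBXW2 and SH3BP5, which share 9 to 11 bases, are not shown. Over whole canonical transcripts the best stretch shared a median of 13 bases, both in 39 higher genes and in all 12373 genes. At least 17 bases were shared in 2 of the 39 and in 14 of all (0.113%).
TFDP1, chr13:114295391-114295411, plus strand: tacttataagtctATCATTTa
TFDP1, chr13:114295514-114295534, plus strand: tcaaaatttgtcaATCATTTt
CD164, chr6:109688995-109689015, minus strand: acattattttagaATCATTTa
CD164, chr6:109688955-109688975, minus strand: atattattttagaATCATTTa
CD164, chr6:109688933-109688953, minus strand: tttaaatgagacaATCATTTt
CBFB, chr16:67133043-67133063, plus strand: agggttttctctaATCATTTt
DUS1L, chr17:80015763-80015783, minus strand: aagtgaacaataaATCATTTc
FOXN3, chr14:89623517-89623537, minus strand: acgtgtgtgaacgATCATTTc
FBXW2, chr9:123521580-123521600, minus strand: gtgttaactataaATCATTTa
SH3BP5, chr3:15297516-15297536, minus strand: cattgtgccaataATCATTTa

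The share of genes past the limit grew with the number of matches. Among genes without the motif, 14 of 8986 (0.156%) were higher with both ZSCAN5A siRNAs, among genes with 1 match 8 of 2046 (0.391%), and among genes with 2 or more matches 11 of 932 (1.18%). Over these groups the median log2 ratio of si4 over si1 went from -0.0068 to 0.010 and 0.038, and that of si5 over si1 from -0.035 to 0.011 and 0.041. The control over si1 moved the same way, from -0.010 to 0.038 and 0.065, although it shares si1 with the other ratios. Since longer 3′ UTRs hold more matches, genes were also grouped by 3′ UTR length. The control over si1 rose with length in genes without a match as well. With and without a match its medians were -0.030 and -0.096 up to 500 bases, and 0.0043 and -0.030 up to 1000 bases. They were 0.00065 and 0.013 up to 2000 bases, 0.053 and 0.029 up to 4000 bases, and 0.074 and 0.075 above that. The trend of the control with matches is therefore in part one with length. For UTRs of over 500 and up to 1000 bases, 2 of 183 genes with a match passed (1.09%), against 2 of 1887 without one (0.106%). Up to 2000 bases it was 5 of 534 (0.936%) against 2 of 2292 (0.0873%). Up to 4000 bases it was 8 of 1075 (0.744%) against 4 of 1958 (0.204%). The share was larger with a match in these groups, but each rests on few genes past the limit. Above 4000 bases the shares were 0.357% (4 of 1121) and 0.284% (2 of 705). Up to 500 bases none of the 65 genes with a match passed, against 4 of 2144 without one. Most genes with the motif therefore did not pass the limit, and the typical shift was small.

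Of the 23 genes, 6 held no match, namely AP1S3, SUMF1, EPB41L4B, RPRD1B, NUPR1 and MAPK6, and none of these held it elsewhere in the canonical transcript. Their smaller ratio to si1 was between 1.60-fold and 1.78-fold, within the range of 1.502-fold to 2.32-fold of the 17 genes with a match. The seed match of the other strand of si1, GCACACG, was in the 3′ UTR of 0 of the 33 higher genes and of 4.33% of the genes tested. At that share, 33 genes are too few to read this as a difference. Whether the seed of si1 has a part in any of these differences was not tested.

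The seeds of the ZSCAN5A siRNAs were searched in the same way, with ACGTGTA for si4 and ACAAGAG for si5. Genes with 1 match to si4 (415 genes) had a median log2 ratio of si4 over si1 of -0.14, whereas genes without a match were at 0.0021. The 19 rows with 2 or more matches, which include PLCXD1 in duplicate, had -0.35. With si5 the groups with 1 match, 2 or more and none were at -0.012, 0.042 and -0.022, so that the lower values were found with si4 and not with si5. For the si5 seed, the median log2 ratio of si5 over si1 was -0.038 in 1321 genes with 1 match, -0.094 in 222 genes with 2 or more and -0.018 in genes without one, while that of si4 over si1 was 0.0042, 0.0050 and -0.0022. Of the 13 lower genes with a 3′ UTR, 0 held either motif. Of all genes tested with a 3′ UTR, 3.63% held the si4 motif and 12.9% the si5 motif, so 13 genes are too few to read this as a difference. Of the 33 higher genes, 0 held the si4 motif and 5 (15.2%) the si5 motif. The requirement that both ZSCAN5A siRNAs pass the 1.5-fold limit leaves out genes that passed it with only 1 of them. CMTM4, named after its values were seen, is such a gene, with 2 si4 matches and FPKM of 13.1 (si4), 22.9 (si5), 25.96 (si1) and 26.6 (control).

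**Figure D3:**
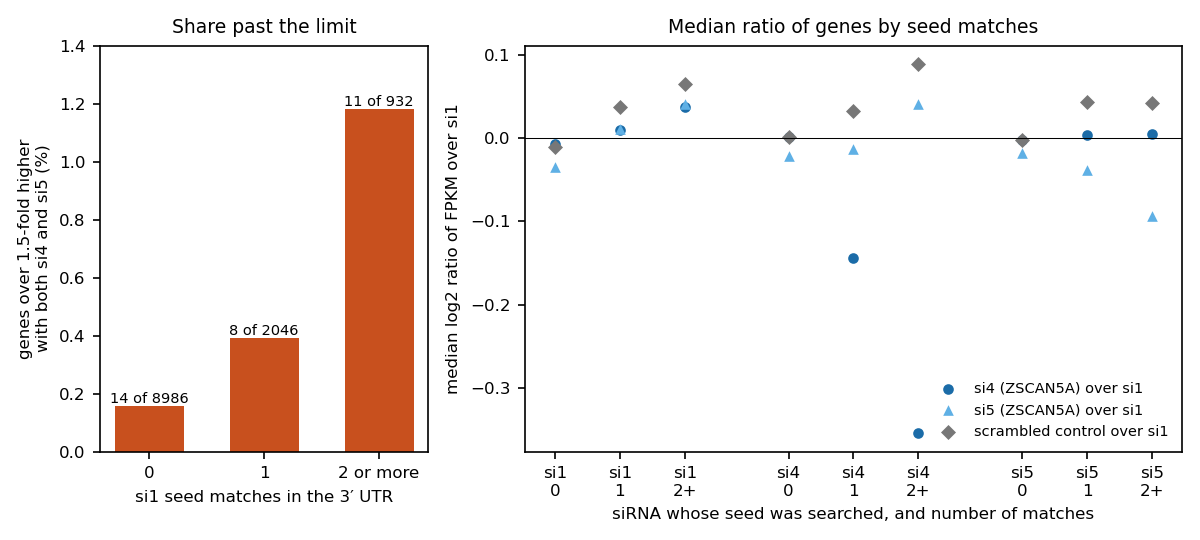
On the left, bars show the percentage of genes over 1.5-fold higher with both si4 and si5 than with si1, by the number of si1 seed matches in the 3′ UTR, rising from 0.156% to 1.18%. On the right, points show the median log2 ratio of FPKM over si1 for si4, si5 and the control in genes grouped by matches (0, 1, or 2 and more) to the seed of each siRNA. The si4 points fall with the si4 seed, to -0.35 in 19 rows, and the si5 points fall less with the si5 seed.

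The gene lists followed the functions the study is about. They are described by counts and medians, with no test, beside the background of 29.5% of genes higher and 35.1% lower with both ZSCAN5A siRNAs, and a median log2 ratio of -0.00013 with si4 and -0.021 with si5 over all genes. Very few members passed the 1.5-fold limit: TFDP1 in the list of E2F, DP and pocket protein genes, DUS1L among tRNA modification genes, ITGA8, NUPR1 in the integrated stress and unfolded protein response, HIST1H2AL and HIST1H4E among histone genes, and ZSCAN5A, the one ZSCAN5 gene past the expression limit, among SCAN domain genes. HIST1H2AL was higher, at 1.37, 1.27 and 0.449 FPKM with si4, si5 and si1 from 23, 30 and 7 fragments, and HIST1H4E lower, at 0.647, 0.719 and 1.39 FPKM from 7, 11 and 14 fragments. Both are histone genes whose mRNAs carry no poly(A) tail, and the intervals of HIST1H4E against si1 include 1 (0.159 to 1.23 with si4). The lists therefore differ, if at all, by small shifts shared by many members.

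The clearest shift of this kind was in genes for cytosolic ribosomal proteins, the protein components of the translating ribosome. Of 78 genes, 69 (88.5%) were higher with both ZSCAN5A siRNAs and 6 lower, and none passed the limit. The median log2 ratio was 0.074 with si4 and 0.097 with si5. In 48 of the 78 the distance to si1 exceeded that between si4 and si5, against 3958 of all 12863 genes. For RPL13A the values were 0.45 and 0.44 and for RPS15 0.28 and 0.43. The control stood on the other side of si1, at a median log2 ratio of -0.25. That place was not particular to this list. The control medians were -0.26 for mitochondrial ribosomal protein genes, -0.26 for oxidative phosphorylation genes and -0.23 for ribosome biogenesis genes. The shift with both ZSCAN5A siRNAs was not seen in mitochondrial ribosomal protein genes, of which 11 of 77 were higher and 35 lower. Their medians were 0.0013 with si4 and -0.11 with si5. Ribosome biogenesis genes were alike, with 16 of 101 higher and 35 lower, and their medians of 0.036 and -0.10 differed in sign between the siRNAs.

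Genes of DNA replication and chromosome segregation were more often higher than genes overall. Of 60 DNA replication genes, 38 (63.3%) were higher with both and 5 (8.33%) lower, with medians of 0.078 with si4 and 0.092 with si5. POLD3, a subunit of DNA polymerase delta, had log2 ratios of 0.30 and 0.45. Of 94 kinetochore, spindle and mitotic exit genes, 57 (60.6%) were higher and 12 (12.8%) lower, with medians of 0.050 and 0.13. CENPE, the kinetochore motor, was the highest at 0.58 and 0.72, just under the limit, and CENPF was at 0.28 and 0.37. Of 22 cohesin and condensin genes, 18 (81.8%) were higher and 0 lower, with medians of 0.060 and 0.13, NCAPD2 of condensin at 0.25 and 0.34 and SMC3 of cohesin at 0.20 and 0.31. In 28 of the 60, 26 of the 94 and 8 of the 22 genes the distance to si1 exceeded that between the siRNAs. Over all genes this was so in 3958 of 12863, and the kinetochore and cohesin counts lie near that share. Cyclins, their kinases and inhibitors had 16 of 34 genes higher and 6 lower, and CCND1, cyclin D1, was low with si4 alone, at 7.09 FPKM against 18.0 with si5, 22.4 with si1 and 24.7 in the control. The control stood close to si1 in the replication, kinetochore and cohesin lists, with medians of 0.0097, -0.012 and 0.033.

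RNA polymerase III machinery had 10 of 31 genes higher and 8 lower, with medians of 0.026 and -0.040, and neither aminoacyl-tRNA synthetases (11 of 40 higher, 13 lower) nor tRNA modification genes (17 of 70 higher, 22 lower) were set apart from all genes by their counts. Stress response genes had 21 of 44 higher and 6 lower, with medians of 0.055 and 0.14, and besides NUPR1 the highest values were those of ASNS at 0.26 and 0.66 and CHAC1 at 0.16 and 0.74. Small RNA silencing genes, which include the Argonautes through which siRNAs act, had 13 of 22 higher and 2 lower, with medians of 0.074 and 0.080, and TSNAX was at 0.56 and 0.40. In this list the control stood at a median of 0.29 above si1. Extracellular matrix and adhesion genes had 10 of 57 higher and 25 lower, HEK-293 marker genes 1 of 14 higher and 9 lower with medians of -0.12 and -0.11, and SCAN domain genes 14 of 42 higher and 11 lower. NES, the intermediate filament protein nestin, was the lowest of the HEK-293 markers at -0.88 and -0.43.

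The remaining lists gave no common direction. Genes beside ZSCAN5B binding peaks of HEK-293 cells in the study's own table had 7 of 18 higher and 8 lower, with medians of -0.0059 and -0.0015. The paper describes such neighbours among genes that changed with ZSCAN5B knockdown. Members may therefore have been selected partly on the si1 library, and their counts are no measure of an effect of binding. Developmental transcription factors had 34 of 99 higher and 36 lower, Wnt and Notch genes 10 of 49 and 18, p53 targets 12 of 29 and 8, interferon response genes 9 of 33 and 11, oxidative phosphorylation genes 18 of 77 and 29, cholesterol synthesis genes 7 of 27 and 4, and glycolysis genes 9 of 25 and 6. HOX genes had 16 of 36 higher and 6 lower, but their median was -0.011 with si4 and 0.12 with si5. Histone genes had the widest distance between the ZSCAN5A siRNAs, with medians of -0.28 with si4 and 0.20 with si5 over 27 genes. Of 20 E2F, DP and pocket protein genes, 7 were higher, TFDP1 included, and 7 lower. Of RNA polymerase III transcripts, RMRP, RPPH1 and BCYRN1 could be compared, and of blood, endothelial, liver and muscle markers 1 gene passed the expression limit, so neither list is described further.

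**Figure D4:**
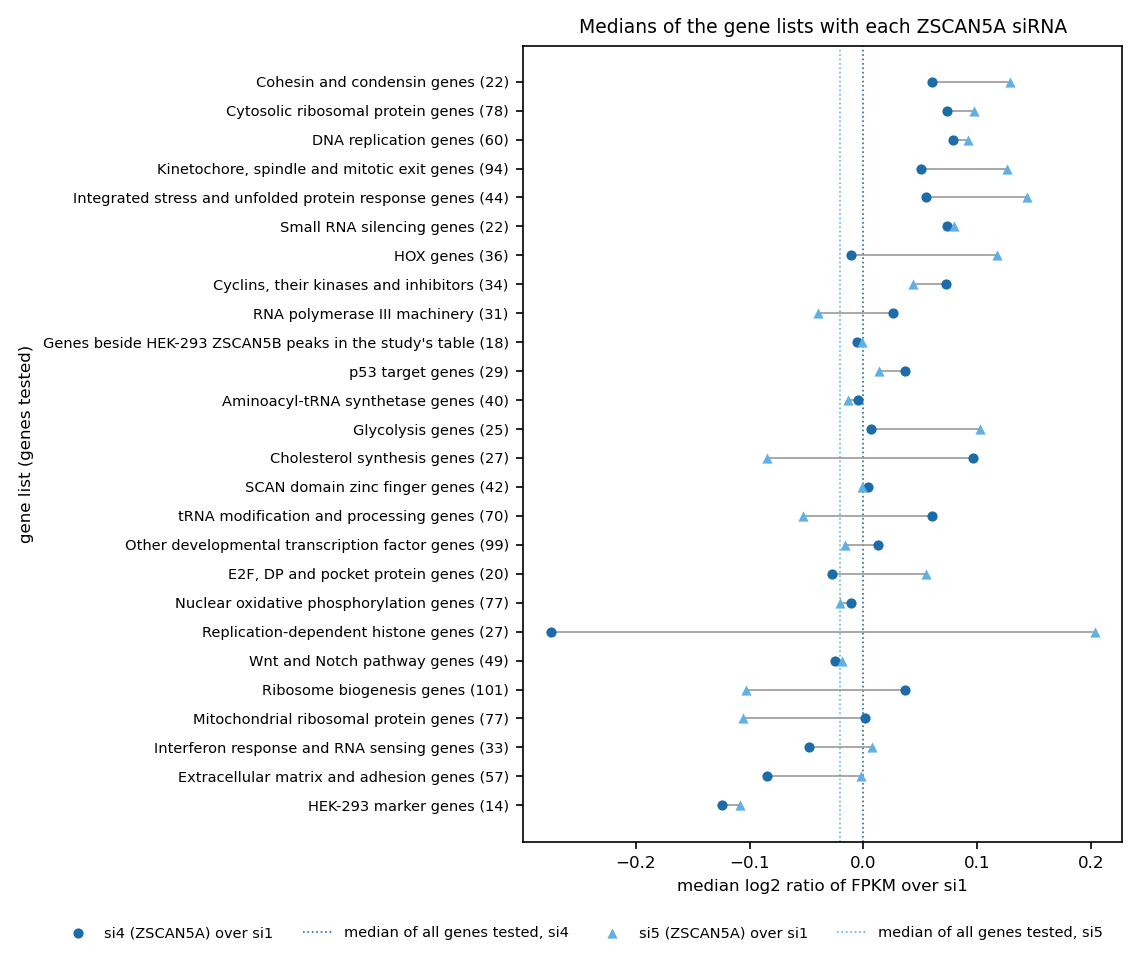
The median log2 ratio of FPKM over si1 (horizontal axis) is shown with si4 (circles) and si5 (triangles) for each gene list with at least 10 genes tested, and dotted lines mark the medians of all genes tested. Cohesin and condensin, cytosolic ribosomal protein, DNA replication and kinetochore genes lie to the right with both siRNAs, HEK-293 marker genes to the left, and for histone genes the siRNAs lie on opposite sides of 0.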

How the data were processed

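HEK-293 libraries of cells treated with si4, si5, si1 or a scrambled siRNA, 1 each, were used, grouped by their labels. The labels name a TruSeq Stranded mRNA kit and the study's methods another stranded mRNA kit. Per the labels, the authors used CASAVA 1.8.2, Trimmomatic 0.30, TopHat2 2.1.0, Cufflinks 2.2.1 and hg19, and they deposited FPKM values. FPKM keeps no read totals. For low genes, fragment numbers were read as the smallest whole numbers, up to 40, whose ratios matched those of the 4 FPKM values to within 0.05% (70.1% of 1745 genes under 0.1 FPKM, 15.5% of 1592 from 0.3 to 1 FPKM). Larger fragment numbers were estimated from annotated lengths of transcripts of at least 500 bases, and 3 fragments were taken as the floor. Intervals cover counting error only.

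Ratios to si1 were taken without a pseudocount from genes at 1 FPKM or more in 1 of si4, si5 and si1 and above 0 in all 3. The members and lists were chosen with earlier results of these data known. Named genes are ZSCAN5A, ZSCAN5B, RMRP, up to 15 genes per direction with the largest ratio among those reaching 5 FPKM on 1 row outside short RNAs, and up to 3 members of each list per direction past the limit; other genes named in the report were chosen after their values were seen. Transcript lengths, GC content and 3′ UTRs came from GENCODE v44 on GRCh37 (of 24934 rows, 19384 matched by symbol and 2030 by an older symbol), and siRNA sequences from the study's supplement. Alternatives covered the expression limit, pseudocount, scaling, fold limit, each siRNA alone, shared symbols, short RNAs, length and GC content, and limma 3.58.1 (R 4.3.3). Python 3.11.15, NumPy 2.4.6, pandas 2.3.3, SciPy 1.17.1 and matplotlib 3.10.9 were used, and the scripts were tested on simulated data. ZSCAN5C, ZSCAN5D and the study's ChIP-seq were not analysed here.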

Additional observations from a re-analysis of the deposited data

How the results depend on the processing

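No paired analysis was possible because si1 is a single library and the replicate numbers of si4 and si5 only name them. The count of 43 genes higher with both ZSCAN5A siRNAs than with si1 became 28 with a limit of 5 FPKM, 334 without an expression limit, 25 with a pseudocount of 1 FPKM, 10 with a 2-fold limit and 81 with the mean of si4 and si5, and the count of 17 lower genes became 3, 509, 5, 3 and 63. With si5 or si4 alone the counts ranged from 104 to 119 higher and from 100 to 218 lower. By limma they were 0 and 0, with a lowest adjusted p of 0.374. The pseudocount of 0.1, both scalings, and leaving out shared symbols, short RNAs or trends with length and GC content gave 38 to 46 higher and 14 to 15 lower. The mean log2 ratio of ZSCAN5A was between -1.04 and -1.83 with both pseudocounts, both scalings and each siRNA alone, past the limit in each, but ZSCAN5A drops out at 5 FPKM and had an adjusted p of 0.729 by limma. That of ZSCAN5B went from -1.02 to -0.061 with a pseudocount of 1, since it lies far below 1 FPKM, and was -1.52 with si4 and -0.52 with si5 alone. Median-ratio scaling, a 2-fold limit and 5 FPKM were the alternatives run for the position of the control. The control lay nearer the ZSCAN5A siRNAs in 87.0% to 90.0% of higher genes with these. For lower genes the shares leave out MIR762, which was at 0 in the control. They were 50.0% with the main rule (8 nearer the ZSCAN5A siRNAs, 8 nearer si1) and 61.5% with median-ratio scaling. The 2-fold limit gave 50.0%, from ZSCAN5A and SNORA72 alone. At 5 FPKM the share was 100%, from SNORA72 and TESC alone. Searching all annotated 3′ UTRs gave 20 higher genes with the si1 seed match in place of 19, with a background of 26.8%, and the whole canonical transcript gave 18 of 39 (46.2%) against 29.8% of all genes, a narrower gap. The passenger strand of si1, tried after the data were seen as was the whole transcript, gave 0 higher and 0 lower genes, and either limit of 5 FPKM, also set after the data were seen, gave 17 higher and 0 lower. With a pseudocount of 1, 18 higher and 12 lower rows were no longer past the limit, among them FOXN3, ITGA8, AGPAT5, TMEM87A, PPP1R12A, TMOD3, SH3BP5, HIST1H4E, ETV5, CRABP1 and TUBB4A. List medians moved by no more than the standard deviation of the list's si4 and si5 medians in 187 recalculations and by more in 47. Where the si4 and si5 medians of a list nearly coincide, very small moves count as more. The recalculated list medians took the other sign in 26 cases, 15 of these with 1 siRNA alone. This was so in 14 of 26 lists, and 12 lists kept 1 sign throughout. With 1 library per siRNA, differences between cultures cannot be told apart from those between siRNAs.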
